A study of Mus musculus with 16 samples.

Results

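The genes described here are 10 genes of glucose uptake, glycolysis and lactate formation in mouse embryonic stem cells that were leaving pluripotency. They are the glucose transporters Slc2a1 and Slc2a3, the enzymes Hk2, Aldoa, Pgk1, Eno1, Eno1b and Pkm, and the lactate dehydrogenases Ldha and Ldhb. Each was found by its symbol through its Ensembl gene ID, and the 10 genes are 10 of the 24452 genes in the deposited table. The set was chosen by gene name with values of this table in view. Ldhb was chosen by its RPKM, which moved in opposite directions in the 2 lines, and Eno1b by its difference in RPKM between them. Those values of Ldhb and Eno1b are given as a description, with no test.

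RNA depleted of ribosomal RNA was sequenced from E14 wild-type cells (WT) and from cells that the labels call Suz12 knock-out (Suz12-KO). The Suz12 protein belongs to Polycomb repressive complex 2, which methylates histone H3 over silent genes. Both lines were sampled at 0 h and after 24, 48 and 72 h in 1 uM all-trans retinoic acid without LIF, the cytokine that keeps these cells pluripotent. The labels give 16 libraries in 8 groups of 2, and the table gives 1 column of RPKM (reads per gene length and library size) for each group. There is therefore no spread between replicate cultures for any single value, and brackets give 95% Poisson intervals, which hold counting error alone.

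The columns rest on 24731176 to 32153765 reads, of which 1 non-coding gene, Gm42418, took 56.5% to 65.5%. The 10 genes together took 0.154% (WT, 72 h) to 0.443% (Suz12-KO, 24 h) of the reads. Each column was rescaled by the median of ratios before any difference was computed. That scaling removed a shift of 0.43 to 0.63 on the log2 scale from each comparison with 0 h, and of 0.05 to 0.28 from Suz12-KO minus WT. The source of that shift was not tested. Positions are those of GENCODE M21 on GRCm38. Levels below are RPKM as deposited, and differences are log2 differences of scaled RPKM + 0.5. Suz12 RNA was present in all columns, from 0.995 to 3.09 RPKM, so RNA level does not show the loss of Suz12. The sources used here do not give the kind of mutation, and each line may be 1 clone. Hprt, the purine salvage gene, had 0 to 3 reads in the WT columns and 525 to 1182 in the Suz12-KO columns. Other differences between the lines and the loss of Suz12 cannot be told apart. In these bulk samples, fewer cells of a type and less RNA per cell cannot be told apart either.

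Glycolysis splits glucose into pyruvate. Membrane transporters admit glucose, hexokinase traps it, aldolase splits the sugar, and phosphoglycerate kinase and pyruvate kinase make ATP on either side of enolase. Lactate dehydrogenase reduces pyruvate to lactate, which restores the NAD that an earlier step used. The enzyme is a tetramer of A and B subunits (Ldha, Ldhb). Pluripotent cells are known for strong glycolysis, and many of its genes are known targets of hypoxia-inducible factors (HIF) and of Myc.

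Scaled RNA of most of the 10 genes was lower after 72 h than before retinoic acid, whereas Ldhb was lower in WT and higher in the Suz12-KO line. Of the 8 genes tested, 6 fell at 72 h averaged over the lines (Ldha, Hk2, Slc2a3, Pkm, Aldoa and Pgk1) and none of the 8 rose, in a limma fit to all 8 columns with Benjamini-Hochberg adjustment at 0.05. In that comparison 29.1% of all 10860 genes tested were lower and 29.5% higher. Of these calls 5 held in all 9 alternatives run, and that of Pgk1 was lost on the deposited scale. Ldha, Hk2, Slc2a3 and Pkm fell by 1.63, 1.54, 1.31 and 1.16 on the log2 scale. The authors' deposited table marks 6 of the 10 genes as differing between 72 and 0 h in WT, all lower, against 12.2% of genes marked and lower and 18.0% marked and higher. It marks 4 of the 10 in the Suz12-KO line, with Ldha, Hk2 and Slc2a3 lower and Ldhb higher, against 14.2% marked and lower and 19.0% marked and higher. At 72 h 6 of the 10 were at least 2-fold lower in WT and 4 in the Suz12-KO line. The shares of all genes were 11.3% and 13.9%, counted on the same scaled values. On the deposited scale 2 and 0 of the 10 were, and no share of all genes was counted on that scale. Ldhb is among the genes marked in both lines and among the 6 in WT, and since it was chosen for this movement, nothing is read from those counts. Without Ldhb the table marks 5 of 9 genes as lower in WT and 3 of 9 in Suz12-KO, and 5 and 4 of the 9 were at least 2-fold lower. The median over the 10 genes was -1.24 in WT and -0.74 in the Suz12-KO line (without Ldhb -1.31 and -0.77). Over all genes kept it was 0.008 and 0.0, which the scaling itself brings near 0. As deposited, the medians were -0.617 and -0.36 for the 10 genes and 0.498 and 0.324 for all genes kept.

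**Figure D1:**
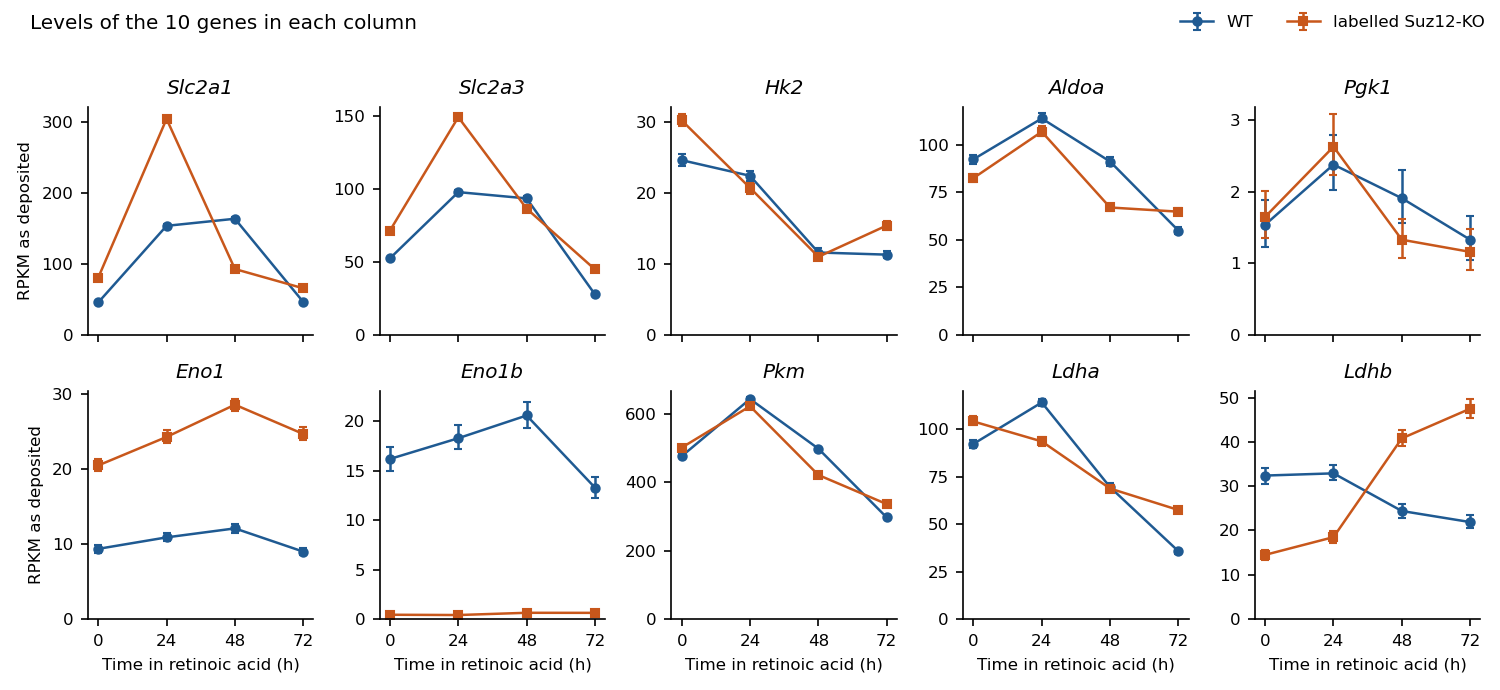
RPKM as deposited (vertical axis, from 0) against hours in retinoic acid (horizontal axis) for the 10 genes, with WT as blue circles and the line labelled Suz12-KO as orange squares. Bars are 95% Poisson intervals. Ldhb ends at 21.9 in WT and 47.5 in Suz12-KO, and Eno1b lies at 13.3 to 20.6 in WT and 0.41 to 0.637 in Suz12-KO.

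The genes differed widely in level. Pkm was the highest of the 10 in every column and ranked 3 to 9 among 9765 protein-coding genes. Pgk1, which encodes an enzyme that every glycolytic cell needs, ranked 5030 to 8004. Ldha and Aldoa did not differ at 0 h in WT beyond counting error, at 92.2 [90.1 to 94.4] and 92.5 [90.2 to 94.7] RPKM. Slc2a3, Slc2a1, Ldhb, Hk2, Eno1b, Eno1 and Pgk1 followed in that order, at 52.4, 45.8, 32.4, 24.6, 16.2, 9.37 and 1.54 RPKM. The intervals of neighbours in that order did not overlap, apart from those of Ldha and Aldoa. Those intervals hold counting error alone, and the order also depends on the gene lengths used in RPKM. In that column Eno1 had 1302 reads over a length of 5379 bases, and Eno1b 735 reads over 1757 bases.

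Slc2a1 (ENSMUSG00000028645, chr4:119108711-119137983, plus strand) encodes the transporter GLUT1, which serves basal glucose uptake in many tissues. Its level in WT was 45.8, 154, 164 and 46.5 RPKM at 0, 24, 48 and 72 h. In the Suz12-KO line it was 80.8, 305, 93.0 and 65.8 at the same times. Both lines were high at 24 h, and at 48 h WT was still high while the Suz12-KO column was back near its start. The scaled difference from 0 h was 1.22 at 24 h and 1.22 at 48 h in WT, and 1.37 and -0.34 in the Suz12-KO line. Averaged over the lines, the 24 h difference was 1.29 ± 0.41 (SE), with an adjusted p of 0.0688 by limma, and without the 48 h columns the adjusted p was 0.0176. Suz12-KO minus WT was 0.56, 0.70, -1.003 and 0.45 at 0, 24, 48 and 72 h, each with 1 column per group and no test.

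Slc2a3 (ENSMUSG00000003153, chr6:122727809-122801640, minus strand) encodes GLUT3, a transporter of high affinity known from neurons and early embryos. Its level was 52.4, 97.7, 93.4 and 27.7 RPKM in WT at 0, 24, 48 and 72 h. In the Suz12-KO line it was 71.4, 149, 86.4 and 44.8. Both lines were highest at 24 h and lowest at 72 h. Slc2a3 fell at 72 h in both lines by the authors' deposited marks, with scaled differences of -1.53 in WT and -1.09 in Suz12-KO. The averaged difference at 72 h was -1.31 ± 0.22 (SE; limma adjusted p = 0.00362). The 24 h difference averaged 0.44 ± 0.22 (SE; limma adjusted p = 0.193), and as deposited, without scaling, 0.97 with an adjusted p of 0.0156.

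Relative to Slc2a3, Slc2a1 was higher at 72 h than at 0 h in both lines. The ratio of Slc2a1 to Slc2a3 RPKM in WT was 0.875 [0.841 to 0.91] at 0 h, then 1.57, 1.76 and 1.68. In the Suz12-KO line it was 1.13 [1.1 to 1.17], 2.05, 1.08 and 1.47. Ratios within a column do not depend on the scaling. Of the 9 other glucose transporters looked at, 2 reached 1 RPKM in any column. Slc2a4, the insulin-responsive transporter of muscle and fat, rose to 1.26 RPKM in WT and 1.44 in Suz12-KO from 0.267 and 0.338, a 72 h difference of 0.95 ± 0.19 (SE; limma adjusted p = 0.00633).

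The Slc2a1 promoter is shown because genes of this pathway are textbook HIF targets. The table of RefSeq promoters used here (GRCm38.p6) matched 8 of the 10 genes, at 14 start sites. The motif searched was the HIF core, ACGTG or GCGTG on either strand, in the 250 bases before the start. A core lay in 12 of the 14 windows, against 38.6% of 32851 promoter windows of the same length, and some of the 14 overlap within a gene. Both cores contain a CpG, and 13 of the 14 windows held 9 to 25 CpG against a median of 6 over all windows, whose part in this count was not tested. The Slc2a1 window at chr4:119108495-119108744, plus strand, held 2 cores, shown in capitals in the 5′ to 3′ direction of the gene.
Slc2a1: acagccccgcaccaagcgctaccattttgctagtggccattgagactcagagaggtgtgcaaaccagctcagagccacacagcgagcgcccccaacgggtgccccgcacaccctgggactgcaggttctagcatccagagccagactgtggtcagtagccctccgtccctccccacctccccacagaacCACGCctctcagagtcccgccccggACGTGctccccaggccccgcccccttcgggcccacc

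Such a match is a description of letters, and factor binding was not measured in this table. Of the 20 genes listed as HIF pathway members or known targets, 16 were kept by the filter, and at 24 h 4 rose and 3 fell by limma, where 10.9% of all genes rose and 13.2% fell. At 72 h 7 rose and 5 fell, where 29.5% of all genes rose and 29.1% fell. Egln1, the oxygen-sensing prolyl hydroxylase, rose to 11.4 RPKM in WT and 16.8 in Suz12-KO at 72 h from 1.5 and 2.91 (2.01 ± 0.10 (SE); limma adjusted p = 9.45e-05). P4ha2, a collagen prolyl hydroxylase, rose by 2.17 ± 0.33 (SE; limma adjusted p = 0.00258), and Kdm3a, a histone demethylase, fell by 2.45 ± 0.11 (SE; limma adjusted p = 8.4e-05). Slc16a3, which exports lactate and was listed with the lactate genes, was highest at 24 h in both lines. Its level was 2.91, 6.75, 4.75 and 2.35 RPKM in WT and 2.81, 8.71, 3.59 and 1.91 in Suz12-KO. It rose at 24 h (0.81 ± 0.15 (SE); limma adjusted p = 0.0171) and was below its start at 72 h (-0.81 ± 0.15 (SE); limma adjusted p = 0.00568), a call absent on the deposited scale (adjusted p = 0.139). Egln3 and Bnip3, named after their values were seen, were also highest at 24 h, Egln3 at 5.43 RPKM in WT and 8.26 in Suz12-KO from 1.67 and 3.26 at 0 h. Others of the HIF list went the other way in both lines. Between 0 and 24 h in WT, Kdm3a went from 20.7 to 14.4 RPKM and Epas1 from 2.07 to 0.706, so the list shows no common 24 h peak.

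**Figure D2:**
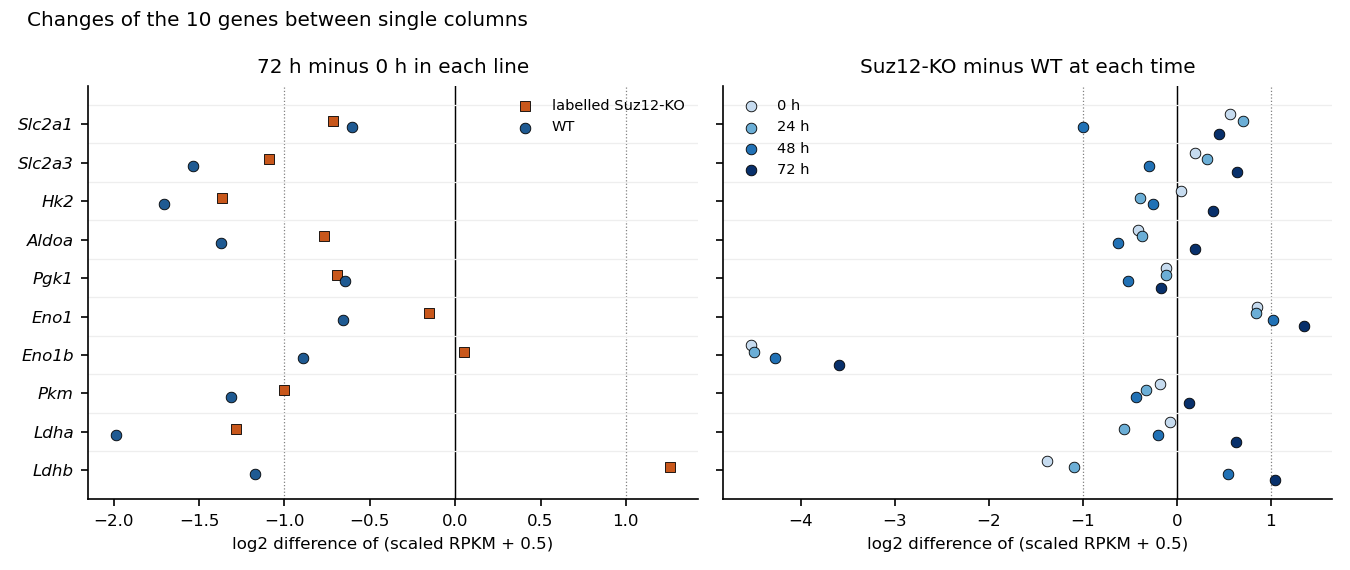
Log2 difference of scaled RPKM + 0.5 (horizontal axis) for the 10 genes (rows). The left panel gives 72 h minus 0 h in WT (blue circles) and in the line labelled Suz12-KO (orange squares), and the right panel gives Suz12-KO minus WT at each time, darker for later times. Dotted lines mark a 2-fold difference. Ldhb lies at -1.18 in WT and 1.26 in Suz12-KO on the left and crosses from -1.38 to 1.05 on the right.

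Hk2 (ENSMUSG00000000628, chr6:82725025-82774454, minus strand) encodes the hexokinase bound to mitochondria in growing and tumour cells. Its level was 24.6, 22.4, 11.6 and 11.3 RPKM in WT at 0, 24, 48 and 72 h, and 30.2, 20.7, 11 and 15.4 in the Suz12-KO line. The 0 and 24 h columns were high and the later columns low in both lines. Hk2 was lower already at 24 h, with a difference of -0.86 ± 0.20 (SE) and an adjusted p of 0.0284 by limma. It was the only 1 of the 8 called lower at that time, where 13.2% of all genes were. That call was absent on the deposited scale (adjusted p = 0.156), without the filter on low values (0.0718) and without the 48 h columns (0.0582). At 48 h the difference was -1.80 ± 0.20 (SE; limma adjusted p = 0.00136) and at 72 h -1.54 ± 0.20 (SE; limma adjusted p = 0.00137), and both held in all 9 alternatives run for each. Hk1, the hexokinase of most adult tissues, took a growing share. The ratio of Hk2 to Hk1 RPKM went from 27.8 [24.1 to 32.2] to 8.23 [7.29 to 9.31] in WT and from 27.7 [24.4 to 31.6] to 7.72 [6.96 to 8.57] in Suz12-KO between 0 and 72 h.

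At phosphofructokinase, the committing step that follows, Pfkl, the liver form, held the largest share of RPKM in all 8 columns, from 50.4% to 72.8%. Pfkp, the platelet form, fell by 3.37 ± 0.17 (SE) at 72 h with a limma adjusted p of 0.00011. It went from 5.01 to 0.205 RPKM in WT and from 5.74 to 0.316 in Suz12-KO. Its share of phosphofructokinase RPKM went from 19.0% to 1.16% in WT and from 19.3% to 1.14% in the Suz12-KO line. Pfkp overlaps Pitrm1 on the opposite strand over 748 exon bases, and the sources used here do not say whether the counting used strand.

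Aldoa (ENSMUSG00000030695, chr7:126795234-126800751, minus strand) is the aldolase of muscle and of most proliferating cells. Its level was 92.5, 114, 91.3 and 54.9 RPKM in WT and 82.6, 107, 67.1 and 64.9 in Suz12-KO at 0, 24, 48 and 72 h. The 72 h columns were the lowest in each line. Aldoa fell at 72 h by 1.07 ± 0.20 (SE; limma adjusted p = 0.0058), and at 48 h by 0.74 ± 0.20 (SE; limma adjusted p = 0.0286), the latter not on the deposited scale (adjusted p = 0.488). The authors' deposited table marks it in WT, where the difference was -1.37, and not in Suz12-KO, where it was -0.77. Aldoa held 98.6% to 99.5% of the RPKM of Aldoa and Aldoc in all 8 columns. Aldoc, the brain form, fell from 1.22 to 0.557 RPKM in WT and from 1.01 to 0.352 in Suz12-KO (-1.12 ± 0.17 (SE); limma adjusted p = 0.00267).

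Pgk1 (ENSMUSG00000062070, chrX:106187100-106203699, plus strand), the X-linked phosphoglycerate kinase, had 66 to 156 reads per column. Its level was 1.54 [1.23 to 1.89], 2.38, 1.91 and 1.33 [1.05 to 1.66] RPKM in WT. In Suz12-KO it was 1.65 [1.35 to 2.01], 2.63, 1.33 and 1.16 [0.9 to 1.48]. The intervals at 0 and 72 h overlap in each line. Pgk1 was called lower at 72 h by the fit (-0.67 ± 0.14 (SE); limma adjusted p = 0.00827), but not on the deposited scale (adjusted p = 0.209), and the authors' table marks it in neither line. Over its annotated transcripts, 68.0% of 50-base windows also occur in another gene, 67.9% in the pseudogene Pgk1-rs7, which had 0 to 2 reads per column. Its level is therefore uncertain.

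Several other glycolytic genes share sequence with copies elsewhere. Exact 50-base windows found in another annotated gene made up 58.4% of Gapdh, 49.5% of Eno1, 41.5% of Pgam1 and 85.2% of Eno1b. They made up 0% of Hk2 and Slc2a3, 1.6% of Slc2a1, 8.5% of Aldoa, 10.4% of Ldha, 21.0% of Ldhb and 23.7% of Pkm. Gapdh, a standard reference gene, was at 9.93 to 14.1 RPKM. The sources used here do not say how reads that match several genes were handled, and its part in these levels was not tested.

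**Figure D3:**
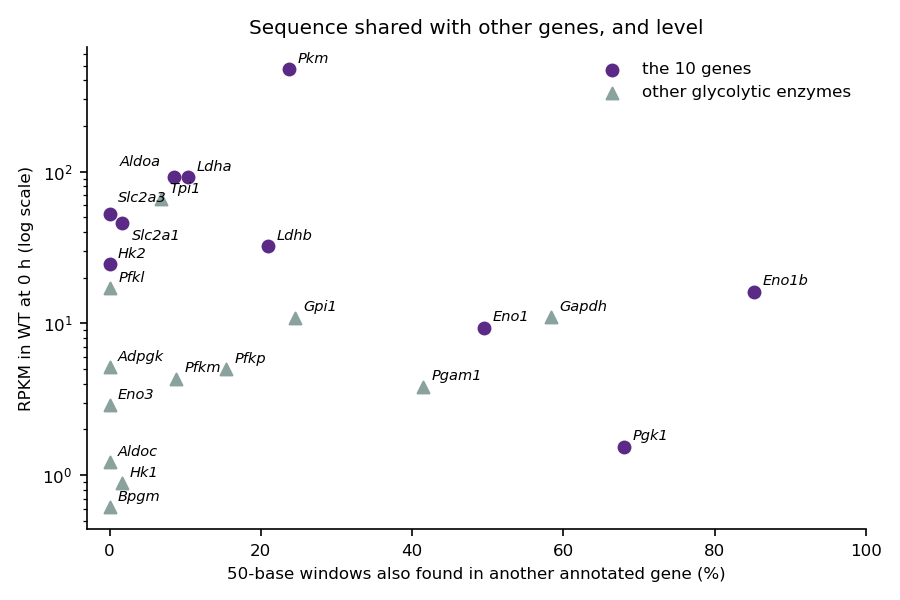
RPKM in WT at 0 h (vertical axis, log scale) against the percent of 50-base transcript windows that occur exactly in another annotated gene (horizontal axis), for the 10 genes (circles) and other glycolytic enzymes at 0.5 RPKM or more (triangles). Pgk1, at 68.0% shared windows, lies at 1.54 RPKM, and Pkm, at 23.7%, lies at 476 RPKM.

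Eno1 (ENSMUSG00000063524, chr4:150236721-150248879, plus strand) encodes the enolase of most cells, and Eno1b (ENSMUSG00000059040) lies on chromosome 18 as a near-identical copy. Their longest annotated coding transcripts are identical at 99.5% of 1652 aligned bases, and 76.4% of the windows of Eno1b occur in Eno1. Reads of each are therefore uncertain, and the pair is best read together. Eno1b had 735, 903, 895 and 617 reads in WT at 0, 24, 48 and 72 h and 21, 19, 36 and 28 reads in the Suz12-KO line. That is 16.2, 18.3, 20.6 and 13.3 RPKM in WT and 0.439, 0.41, 0.637 and 0.63 in Suz12-KO. All WT columns were above all Suz12-KO columns. Of the reads of Eno1 and Eno1b together, Eno1b took 36.1% [34.0% to 38.2%] in WT at 0 h, and 35.4%, 35.7% and 32.5% later. In Suz12-KO its share was 0.694% [0.43% to 1.06%], 0.547%, 0.723% and 0.826% (exact Clopper-Pearson 95% intervals, counting error only). In each line the intervals of the share at 0 and 72 h overlap, and no interval of WT overlaps one of Suz12-KO.

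Eno1 itself went the other way between the lines. Its level was 9.37, 10.9, 12.1 and 9.0 RPKM in WT and 20.5, 24.3, 28.6 and 24.7 in Suz12-KO, with no overlap between the lines. Averaged over the 4 times, Eno1 was higher in Suz12-KO by 1.02 ± 0.11 (SE; limma adjusted p = 0.00898), and higher at 4 of 4 times. It was the only 1 of the 8 genes tested that was called between the lines, where 3.34% of all genes were higher and 2.27% lower. Eno1b was chosen for its difference between the lines, and reads of Eno1 and Eno1b are not cleanly separated. The Eno1 call is therefore not separate from that choice, and nothing is read from it. Without the 48 h columns the adjusted p was 0.0717. The summed reads of Eno1 and Eno1b, scaled, differed by less: Suz12-KO minus WT was 0.23, 0.25, 0.43 and 0.85 at 0, 24, 48 and 72 h. Eno1 did not pass the test at 72 h against 0 h (-0.41 ± 0.15 (SE); limma adjusted p = 0.0611), and its sign at 48 h and 72 h turns on the deposited scale.

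**Figure D4:**
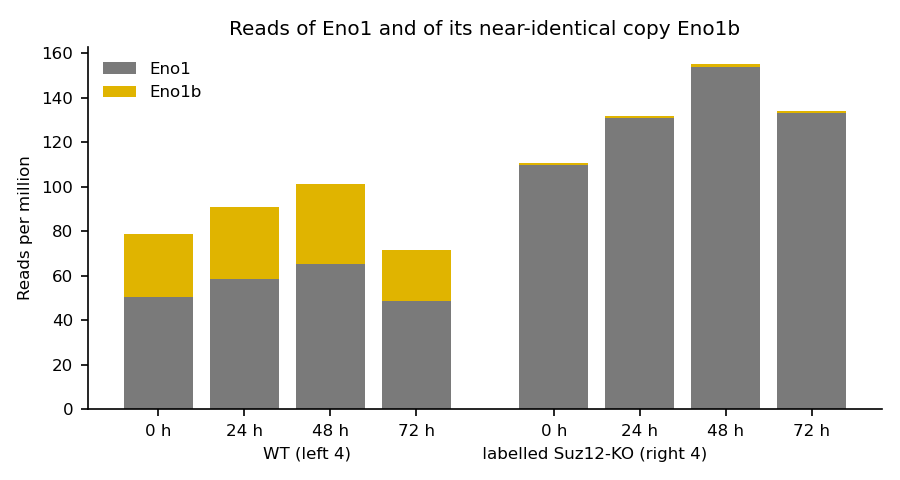
Reads scaled to library size (vertical axis, from 0) counted for Eno1 (grey) and Eno1b (yellow), stacked, in the 4 WT columns (left) and the 4 columns labelled Suz12-KO (right). Eno1b makes up 32.5% to 36.1% of the stack in WT and 0.547% to 0.826% in Suz12-KO.

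Eno3, the muscle enolase, shares no 50-base window with other genes. It stood at 2.89, 5.89, 7.02 and 16.6 RPKM in WT and 11.5, 21.5, 18.6 and 18.6 in Suz12-KO. Its 72 h difference was 1.02 ± 0.36 (SE; limma adjusted p = 0.0494), a call lost in 6 of 9 alternatives. Its difference between the lines was 1.10 ± 0.25 (SE; limma adjusted p = 0.0624).

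Pkm (ENSMUSG00000032294, chr9:59656368-59679375, plus strand) encodes pyruvate kinase M, whose M1 and M2 isoforms this gene-level table does not separate. It shares 767 exon bases with Gm49759 on the same strand, a gene that is not a row of the table. Its level was 476, 643, 498 and 297 RPKM in WT and 501, 622, 421 and 336 in Suz12-KO at 0, 24, 48 and 72 h. The 24 h columns were the highest and the 72 h columns the lowest in both lines. The 24 h peak exists in RPKM as deposited, and after scaling the 24 h difference was -0.08 in WT and -0.24 in Suz12-KO. Pkm fell at 72 h by 1.16 ± 0.18 (SE; limma adjusted p = 0.00279) and at 48 h by 0.67 ± 0.18 (SE; limma adjusted p = 0.0257). The 48 h call was absent on the deposited scale (adjusted p = 0.65).

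Ldha (ENSMUSG00000063229, chr7:46841475-46855627, plus strand) encodes the A subunit of lactate dehydrogenase, the form of muscle and tumours that favours lactate formation. Its level was 92.2, 114, 69.4 and 35.7 RPKM in WT and 104, 93.5, 68.7 and 57.4 in Suz12-KO. The 72 h column was the lowest in each line. Ldha fell at 72 h by 1.63 ± 0.27 (SE; limma adjusted p = 0.00345), and at 48 h by 1.08 ± 0.27 (SE; limma adjusted p = 0.0205), the latter not on the deposited scale (adjusted p = 0.109). The authors' table marks it in both lines, where the scaled differences were -1.99 in WT and -1.28 in Suz12-KO. With Ldha, 5 of the 8 tested genes were lower at 48 h (Hk2, Ldha, Pkm, Aldoa and Pgk1), where 23.8% of all genes were lower and 23.5% higher. Of these 5 calls, that of Hk2 held in all 9 alternatives run, and the other 4 were lost on the deposited scale and also without the filter on low values (adjusted p from 0.0543 to 0.0945). Those of Aldoa and Pgk1 were lost without the 24 h columns too (adjusted p = 0.054 and 0.0702), and that of Pgk1 without the 72 h columns (0.0624).

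Ldhb (ENSMUSG00000030246, chr6:142490249-142507957, minus strand) encodes the B subunit, the form of heart and other oxidative tissues. In WT its level was 32.4 [30.6 to 34.2], 32.9 [31.3 to 34.7], 24.4 and 21.9 [20.5 to 23.4] RPKM at the 4 times. In the Suz12-KO line it was 14.5 [13.4 to 15.7], 18.5 [17.2 to 19.9], 40.8 [39.0 to 42.6] and 47.5 [45.4 to 49.7]. WT was above Suz12-KO at 0 and 24 h and below it at 48 and 72 h. The scaled difference from 0 h was -0.49, -1.004 and -1.18 in WT at 24, 48 and 72 h, and -0.19, 0.92 and 1.26 in Suz12-KO. As deposited, the 72 h differences were -0.55 and 1.67. Suz12-KO minus WT was -1.38, -1.09, 0.54 and 1.05 at the 4 times. The authors' table marks Ldhb at 72 h in both lines. Ldhb was chosen for this pattern, so the difference was not tested. Ldhb shares 21.0% of its windows with the pseudogene Gm5514, which had 0 to 6 reads per column against 621 to 2059 for Ldhb, and no window with Ldha.

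Both lines ended with more B relative to A. The ratio of Ldhb to Ldha RPKM in WT was 0.351 [0.331 to 0.372], 0.289, 0.352 and 0.614 [0.57 to 0.662] at 0, 24, 48 and 72 h. In Suz12-KO it was 0.139 [0.128 to 0.151], 0.198, 0.594 and 0.828 [0.784 to 0.874]. In WT the ratio was highest at 72 h, while both subunits were lower than at 0 h. In Suz12-KO it increased at each step. The summed RPKM of both subunits was 125, 147, 93.9 and 57.6 in WT and 119, 112, 109 and 105 in Suz12-KO, so the sum at 72 h was higher in the Suz12-KO column.

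**Figure D5:**
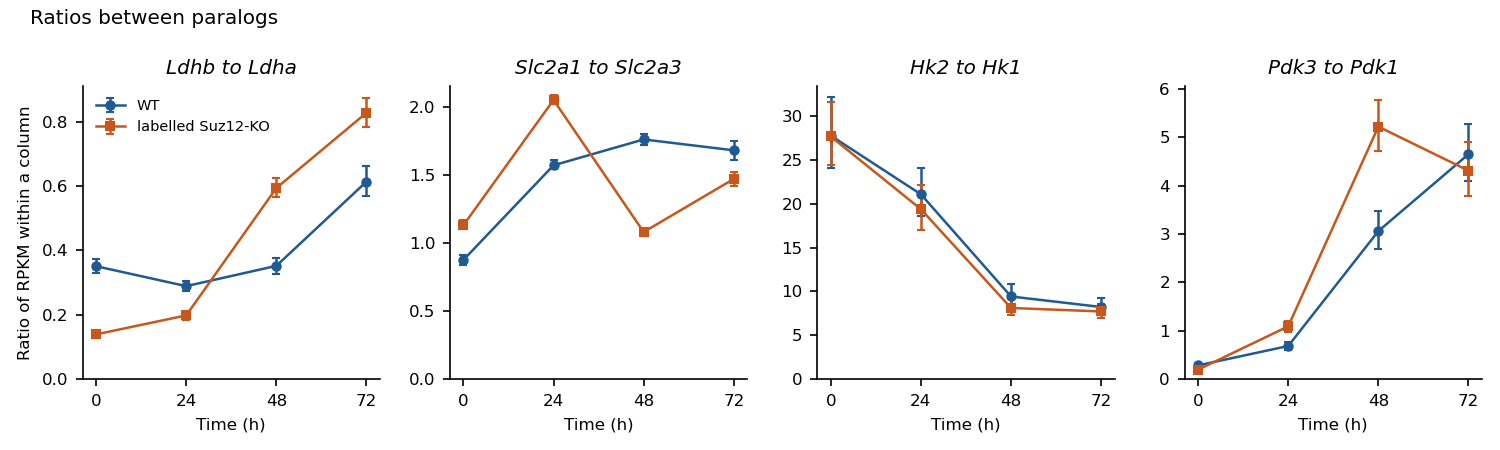
Ratios of RPKM within a column (vertical axes, from 0) against hours in retinoic acid, for Ldhb to Ldha, Slc2a1 to Slc2a3, Hk2 to Hk1 and Pdk3 to Pdk1, in WT (blue circles) and the line labelled Suz12-KO (orange squares). Bars are 95% intervals from read counts, counting error only. Ldhb to Ldha reaches 0.614 in WT and 0.828 in Suz12-KO at 72 h, and Hk2 to Hk1 declines alike in both lines, from 27.8 and 27.7 to 8.23 and 7.72.

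Markers of other cell types are set beside these results. The 8 endoderm markers summed to 3.14, 3.93, 16.7 and 22.6 RPKM in WT, where Gata6 and Sox17 were at 0 at 0 h. In Suz12-KO they summed to 14.2, 18.4, 88.4 and 153, with all 8 above 0 at all times. Of the 153 RPKM at 72 h, Col4a1 held 71.7 and Lama1 55.9, so the sum mostly reflects those genes. By limma 6 of the 8 rose at 72 h, where 29.5% of all genes did. Averaged over time 3 were higher in Suz12-KO (Col4a1, Lama1 and Sox7), where 3.34% of all genes were. Foxa2 went the other way between the lines, by -0.13, and was not called (limma adjusted p = 0.626). The 8 pluripotent cell markers summed to 409 and 538 RPKM at 0 h in WT and Suz12-KO, and to 11.4 and 19.3 at 72 h. The 7 fibroblast markers summed to 0.399 to 9.15 RPKM, with Lum at 0 in 6 of 8 columns. Their part in the results for Ldhb and for the genes that fell was not tested.

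The promoters of the 2 lactate dehydrogenase genes are printed because their RNA parted in the Suz12-KO line. The first Ldha start has 5 HIF cores, 2 pairs of which come from the palindrome CACGTG, the Myc E-box, read on both strands. A CACGTG occurred in 1 of the 14 windows and in 6.02% of all windows. The second Ldha start and the Ldhb start have 1 core each. The windows are chr7:46845554-46845803 and chr7:46846832-46847081, plus strand, for Ldha and chr6:142507958-142508207, minus strand, for Ldhb, with cores in capitals. None of the 14 windows held TATAAA, which 12.4% of all windows did. AGGTCA, the half-site of retinoic acid receptors, was in 5 of the 14 and in 14% of all. Those windows belong to Ldhb, Eno1, Pkm and Aldoa, and the Aldoa windows with it overlap. Neither Ldha window held it. The part of these motifs in the RNA levels was not tested.
Ldha, first start: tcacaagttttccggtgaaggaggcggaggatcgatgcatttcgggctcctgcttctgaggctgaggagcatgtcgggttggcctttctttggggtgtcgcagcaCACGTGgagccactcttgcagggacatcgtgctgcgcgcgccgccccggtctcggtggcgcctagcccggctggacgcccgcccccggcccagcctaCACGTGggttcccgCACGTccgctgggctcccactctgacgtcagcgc
Ldha, second start: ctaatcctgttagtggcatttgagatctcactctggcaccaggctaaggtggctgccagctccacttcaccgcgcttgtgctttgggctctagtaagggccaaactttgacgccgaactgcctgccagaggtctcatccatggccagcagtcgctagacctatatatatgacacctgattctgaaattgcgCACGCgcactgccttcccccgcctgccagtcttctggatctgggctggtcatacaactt
Ldhb: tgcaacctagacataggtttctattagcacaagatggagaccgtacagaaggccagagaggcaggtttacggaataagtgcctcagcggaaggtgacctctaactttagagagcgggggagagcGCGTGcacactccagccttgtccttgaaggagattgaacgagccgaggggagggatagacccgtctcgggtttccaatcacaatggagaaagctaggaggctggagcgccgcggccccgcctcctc

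The genes that take pyruvate onward were counted by the same test. Of the 8 kept genes of pyruvate dehydrogenase and its kinases and phosphatases, 6 fell and 1 rose at 72 h, beside 29.1% lower and 29.5% higher among all genes. Pdk1, a kinase that shuts pyruvate dehydrogenase off and is a known HIF target, fell from 8.71 to 1.95 RPKM in WT and from 14.2 to 2.10 in Suz12-KO (-2.70 ± 0.18 (SE); limma adjusted p = 0.000204). Pdk3, a paralog, rose from 2.46 to 9.04 and from 2.77 to 9.05 RPKM (1.15 ± 0.17 (SE); limma adjusted p = 0.00233). The ratio of Pdk3 to Pdk1 went from 0.283 [0.239 to 0.332] to 4.65 [4.09 to 5.28] in WT and from 0.195 [0.167 to 0.225] to 4.31 [3.79 to 4.9] in Suz12-KO. The enzyme subunit Pdhb fell by 1.12 ± 0.19 (SE; limma adjusted p = 0.00369).

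Of 5 kept genes of lactate and pyruvate handling, 2 rose and 1 fell at 72 h. Bsg, the chaperone of lactate transporters, rose from 22.3 to 67.5 RPKM in WT and from 28.4 to 80.4 in Suz12-KO (1.01 ± 0.11 (SE); limma adjusted p = 0.000783). Mpc2, a subunit of the mitochondrial pyruvate carrier, was called higher by 0.47 ± 0.14 (SE; limma adjusted p = 0.0282), a call lost without the filter on low values (adjusted p = 0.0523) and without the 48 h columns (0.0618). Of the 14 kept other glycolytic enzymes, 6 fell and 2 rose, with a median of -0.24. Among regulators of fructose 2,6-bisphosphate, the allosteric activator of phosphofructokinase, Tigar fell by 1.38 ± 0.17 (SE; limma adjusted p = 0.00116) and Pfkfb3 rose by 1.04 ± 0.23 (SE; limma adjusted p = 0.00995).

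Neighbouring pathways were counted in the same way, beside the same shares of all genes (29.1% lower, 29.5% higher). In the pentose phosphate pathway 2 of 7 fell and 1 rose at 72 h. G6pdx, its entry enzyme, fell by 1.02 ± 0.19 (SE; limma adjusted p = 0.00528), and Pgls, which follows it, rose by 0.76 ± 0.09 (SE; limma adjusted p = 0.0012). In the TCA cycle 4 of 17 fell and 2 rose, shares below those of all genes, with Idh3a down by 1.16 ± 0.13 (SE; limma adjusted p = 0.00093) and the NADP-dependent Idh2 up by 1.05 ± 0.13 (SE; limma adjusted p = 0.00119). In serine synthesis 4 of 5 fell. Shmt1 and Shmt2, which pass a carbon unit from serine to folate, fell by 1.82 ± 0.13 and 1.54 ± 0.22 (SE; limma adjusted p = 0.000241 and 0.00205). Of 4 kept gluconeogenic genes, G6pc3 rose by 1.39 ± 0.19 (SE; limma adjusted p = 0.00159). In the Myc family Mycl rose by 1.31 ± 0.24 (SE; limma adjusted p = 0.00494) and Mycn fell by 0.68 ± 0.21 (SE; limma adjusted p = 0.0341), a call absent on the deposited scale (adjusted p = 0.532).

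Between the lines, 5 of the 85 tested genes of these 11 pathway lists passed the test averaged over time, each higher in the Suz12-KO line. That is 5.88% of them, beside 3.34% of all genes higher and 2.27% lower. Epas1, which encodes HIF-2 alpha, was higher by 1.53 ± 0.22 (SE; limma adjusted p = 0.0202), at 2.07, 0.706, 0.19 and 0.363 RPKM in WT and 5.79, 2.93, 1.48 and 4.39 in Suz12-KO. Pgls was higher by 0.71 ± 0.07 (SE; limma adjusted p = 0.00619), Sucla2 of the TCA cycle by 0.66 ± 0.07 (SE; limma adjusted p = 0.00908) and Egln1 by 0.56 ± 0.07 (SE; limma adjusted p = 0.0131). Phgdh, the first enzyme of serine synthesis, was higher by 0.44 ± 0.08 (SE; limma adjusted p = 0.0337). Each of these calls was lost without the 48 h columns, with adjusted p between 0.0647 and 0.165.

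Profiles over the 8 columns were compared on scaled log2 values. Among the 6 genes that fell at 72 h, Pearson's r ranged over their 15 pairs from 0.41 for Hk2 with Slc2a3 to 0.98 for Pkm with Aldoa, with a median of 0.82. Ldhb had r between -0.46 (Slc2a1) and 0.28 (Eno1b) with the other 9 genes. Eno1 and Eno1b had r = -0.9. These are descriptions over 8 columns that share lines and times. Among 4733 genes whose scaled levels varied by at least 1 log2 unit, the 3 most like Ldhb were B4galt1 (r = 0.871), Prps2 (0.847) and Gm5129 (0.812). B4galt1, a galactosyltransferase, went from 3.8 to 4.37 RPKM in WT and from 3.34 to 8.00 in Suz12-KO between 0 and 72 h. Prps2, which makes the ribose donor of nucleotide synthesis, went from 2.65 to 2.52 and from 2.04 to 5.23. The profiles most like Ldha were those of Fbxo15 and Nle1 (r = 0.989 each) and Rbmxl2 (0.978). Fbxo15, known as an embryonic stem cell marker, went from 28.9 to 0.448 RPKM in WT and from 22.6 to 2.62 in Suz12-KO. For Eno1b, which was high in WT alone, the nearest were Gm10800 (r = 0.977), Igsf23 (0.974) and Uspl1 (0.965), and Uspl1 went from 6.36 to 8.79 RPKM in WT and from 3.74 to 5.26 in Suz12-KO.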

How the data were processed

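RNA-seq was analysed from 1 table of RPKM per gene and group that the authors deposited, with Ensembl release 72 gene IDs per the file header, and TRUE or FALSE marks for 72 against 0 h (threshold not stated). The submitters' processing notes name TopHat, featureCounts, DESeq2 and GRCm38 (mm10), without versions. The sources used here do not say how the 2 replicates were pooled. Read numbers were recovered from the deposited RPKM, all 153803 values above 0 being whole within 0.01 reads, and used only for 95% intervals of counting error.

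RPKM was divided by median-of-ratios factors. Genes with at least 1 RPKM in at least 1 column were kept (10860), and log2(scaled RPKM + 0.5) was fitted with limma 3.58.1 (R 4.3.3), trended empirical Bayes, on line and time as factors (3 residual degrees of freedom). The spread tested is how lines or times differ, not replicate cultures. Changes of low genes are understated by the added 0.5. The fit was tested on simulated data. Symbols and transcripts came from GENCODE M21 (GRCm38), and promoters from RefSeq. The 10 genes, the lists and the tests were chosen with earlier results of these data known. From each other list, a rule picked up to 3 called genes with the largest 72 h change and up to 3 called between the lines. Where none was called, it picked the leading one. The text names only some of these picks and adds some genes outside the rule. Alternatives covered scaling, pseudocount, filter, trend and leaving out times.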

Additional observations from a re-analysis of the deposited data

Results flagged for a closer look

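Ldhb went in opposite directions in the 2 lines at 48 and 72 h. At 48 h minus 0 h its scaled difference was -1.004 in WT and 0.92 in the Suz12-KO line. At 72 h minus 0 h it was -1.18 in WT and 1.26 in the Suz12-KO line. The difference between the lines was not tested, since each line has 1 column per time and the gene was chosen for this pattern.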

How the results depend on the processing

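No paired analysis was possible because the table has 1 column per group and its columns carry no replicate number. Of 683 tested single values recomputed under alternatives, 614 kept their sign and their side of the threshold, 42 lost a call, 13 gained 1 with their sign kept, and 14 changed sign. Of 400 single-column differences, which have no test, 278 were classed as unchanged and 122 as moved. A change of sign occurred in 25, 24 of them on the deposited scale. On that scale the averaged difference became 0.41 for Eno1 at 48 h (limma adjusted p = 0.0351), 0.004 for Pgk1 at 48 h (0.985) and 0.03 for Max at 72 h (0.837), each called on 1 of the scales. Values called on neither scale turned to 0.34 for Aldoa, 0.225 for Eno1, 0.073 for Ldha and 0.372 for Pkm at 24 h, 0.552 for Slc2a3 at 48 h and 0.103 for Eno1 at 72 h. Between the lines, Hk2 turned to 0.133 and Ldha to 0.139 as deposited, to 0.057 and 0.118 without the 24 h columns, and Hk2 to 0.012 without the 48 h columns, none called. Genes called between the lines numbered 610 (363 higher, 247 lower), against 1308 as deposited (1135 higher, 173 lower), 135 without the filter, and 129, 69 and 167 without the 24, 48 and 72 h columns. Genes called at 24 h numbered 2614 (1183 higher, 1431 lower), against 4420 as deposited (4035 higher, 385 lower), 1683 without the filter and 1469 without the 48 h columns. As deposited, calls were 5096 higher and 831 lower at 48 h, against 2551 and 2586, and 4997 higher and 1320 lower at 72 h, against 3204 and 3160. Of the 10 genes, 6 were at least 2-fold lower at 72 h in WT and 4 in the Suz12-KO line, against 2 and 0 as deposited. Among all genes 11.3% and 13.9% were lower to that degree on scaled values, and no such share was counted as deposited. The cause of these differences was not tested beyond the scale itself, which shifts all genes alike. Without replicate columns, no statement covers variation between cultures. Depth limits Pgk1 (66 to 156 reads) and Eno1b in the Suz12-KO line (19 to 36 reads).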
